A study of Homo sapiens with 6 samples.

Results

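DNA repair genes of 5 pathways were compared between quiescent and young MRC-5 cells, a line of fibroblasts from human fetal lung. The set was 57 genes chosen by name, of 60675 genes in the count table: 28 of homologous recombination and Fanconi repair, 8 of end joining, 3 of mismatch repair, 8 of base excision repair and 10 of nucleotide excision repair. All 57 were found and all 57 passed the filter on low counts. RNA-seq was available for 6 libraries, all from cells at population doubling 32. The quiescent group was 3 libraries of cells held in contact inhibition for 9 days, and the young group was 3 libraries with no such treatment. The submitters reused the young libraries from an earlier set of samples, which means that group and library set cannot be told apart. Nothing in the labels ties the 3 libraries of a group to separate cultures, so a p-value measures only the spread between these libraries, which may be technical.

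Cells repair DNA by several routes. Homologous recombination copies a sister chromatid, the Fanconi pathway unhooks crosslinks between strands and then hands the break to recombination, and end joining seals broken ends without a template. Mismatch repair corrects copying errors. Base excision repair replaces single damaged bases, and nucleotide excision repair removes bulky lesions such as those made by ultraviolet light. Recombination is used mainly after replication has made a sister copy, while end joining and the excision pathways also act in cells that do not divide.

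Total counts per library were 26860981 to 29433764 in young and 18661639 to 22546237 in quiescent cells. Markers of fibroblasts were abundant in both groups, with a summed level of 25085 to 25698 CPM (counts scaled to library totals adjusted by TMM factors) in young and 14636 to 15002 CPM in quiescent libraries over 9 genes. Much of this sum was COL1A1 and COL1A2, with means of 8780 and 8458 CPM in young libraries. Their means were 3880 and 3962 CPM in quiescent libraries. COL3A1, THY1, PDGFRA and DCN were also called lower, while LUM and PDGFRB were called higher and VIM was not called (edgeR). Epithelial markers summed to 12.3 to 13.7 CPM in young and 0.958 to 1.34 CPM in quiescent libraries, with 2 of 5 genes at 0 in every library. Most of that sum was KRT19, with a mean of 12.3 CPM in young and 1.04 CPM in quiescent libraries, while EPCAM had 0.537 and 0.119 CPM. Endothelial markers summed to 1.0 to 1.55 CPM and 6.12 to 6.78 CPM, and leukocyte markers to at most 0.302 CPM with 1 of 5 at 0. A set of 12 cell cycle markers summed to 829.7 to 848.2 CPM in young and 242.7 to 253.7 CPM in quiescent libraries. All 12 fell, by edgeR, with log2 fold changes from -3.37 for MKI67 to -0.64 for MCM6. These levels moved with the group, and their part in the repair results was not tested. In such bulk libraries fewer cells that express a gene and less RNA per cell cannot be told apart.

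With TMM scaling, quiescent cells had less mRNA of most of the 28 listed genes of recombination and Fanconi repair, while the other pathways were mixed. Of the 57 genes, 32 fell and 16 rose at an adjusted p under 0.05 (edgeR's quasi-likelihood test, Benjamini-Hochberg over 15568 genes), and 9 were not called. Over all genes tested 36.3% were called lower, 34.8% higher and 71.1% in either direction, so a large share of calls was the background of this comparison. A fall of at least 2-fold was the rarer event. It was found in 11 of the 57 genes, against 8.33% of all genes, and 10 of these 11 belonged to recombination and Fanconi repair. No repair gene rose by 2-fold or more, against 8.98% of all genes. The groups did not overlap in CPM for 49 of the 57 genes, against 73.5% of all genes. The median log2 fold change, given throughout as quiescent minus young, was -0.24 over the repair genes and 0.00 over all genes tested.

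By pathway, recombination and Fanconi repair had 20 genes that fell, 5 that rose and 3 not called, with a median log2 fold change of -0.45. End joining had 3 that fell and 3 that rose of 8, with a median of -0.14. In mismatch repair 2 genes rose and 1 fell, with a median of 0.16. Base excision repair had 4 that fell and 1 that rose of 8, with a median of -0.20, and nucleotide excision repair had 4 that fell and 5 that rose of 10, with a median of 0.15. The 29 genes outside recombination and Fanconi repair had 12 that fell, 11 that rose and 1 that fell at least 2-fold, which was ERCC2. The counts describe the lists, and the difference between pathways was not tested. In 9 of the 57 genes over 20% of the exon length lies opposite another gene, whose reads a kit without strand marks cannot separate. These were XRCC3 (76.7%, opposite KLC1), LIG3 (30.5%), XPC (30.4%), OGG1 (29%), TP53BP1 (28.7%), ERCC1 (28.6%), ERCC4 (25.7%), RAD54L (25.1%, opposite LRRC41) and FANCA (23.6%), and their values are uncertain to that extent. Scaling by library size alone, which moved the median of all genes to 0.18, turned the split over the 57 genes to 20 higher and 21 lower, and that over recombination and Fanconi repair to 6 higher and 14 lower. Over all 15568 genes the same scaling gave 7568 higher and 3889 lower, in place of 5412 and 5652.

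**Figure D1:**
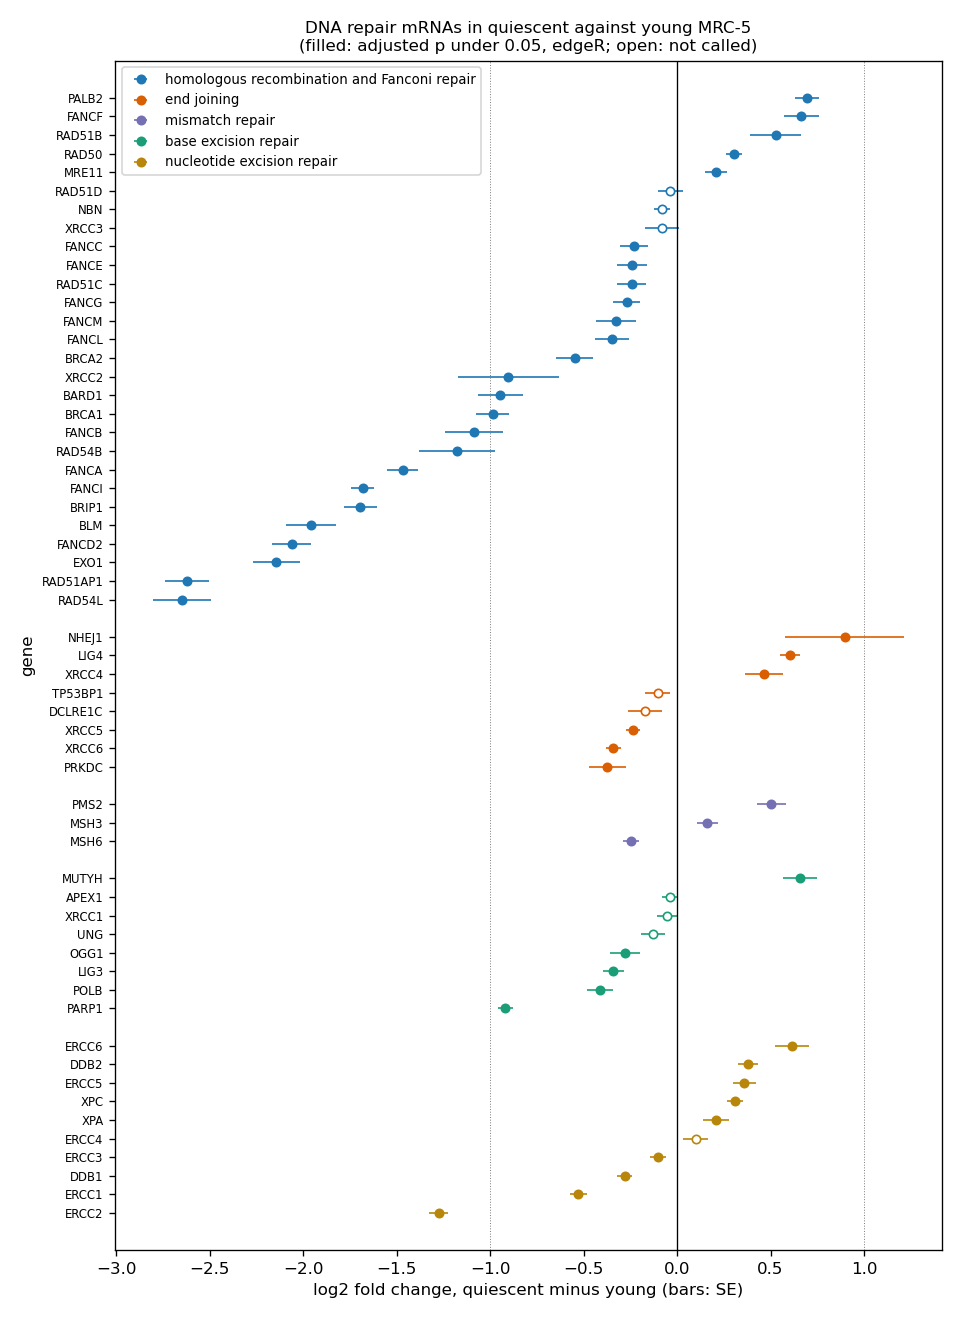
Log2 fold change of each repair gene, quiescent minus young, on the x axis, with 1 gene a row grouped by pathway; points are edgeR estimates and bars are SE, filled where the adjusted p was under 0.05. The long left tail, down to -2.65 for RAD54L, is made of recombination and Fanconi genes, and the other pathways lie between -1.28 for ERCC2 and 0.90 for NHEJ1.

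Promoter sequences were read for the repair genes because the genes that fell most include known targets of E2F, the transcription factor family that drives genes of DNA synthesis. Of the 57 genes, 51 had a window in the RefSeq table (GRCh38.p14), each with 250 bases before and 50 after the annotated start. RAD54B, FANCI, NBN, XRCC5, PRKDC and POLB had none there. Where a gene had several windows only the first listed was used, so its other starts were not searched. For BRCA1 the window used lay near the outer end of the annotated gene. Windows are shown for the strongest falls of the strand exchange genes, of a resection nuclease and of the Fanconi clamp, and for the genes PALB2 and LIG4, which rose. They are RAD54L at chr1:46247438-46247737 on the plus strand, RAD51AP1 at chr12:4538640-4538939 on the plus strand, EXO1 at chr1:241847954-241848253 on the plus strand, FANCD2 at chr3:10026187-10026486 on the plus strand, PALB2 at chr16:23641261-23641560 on the minus strand and LIG4 at chr13:108218300-108218599 on the minus strand. Each is written 5′ to 3′ on the strand of its gene, and capitals mark a match to an E2F word.
RAD54L: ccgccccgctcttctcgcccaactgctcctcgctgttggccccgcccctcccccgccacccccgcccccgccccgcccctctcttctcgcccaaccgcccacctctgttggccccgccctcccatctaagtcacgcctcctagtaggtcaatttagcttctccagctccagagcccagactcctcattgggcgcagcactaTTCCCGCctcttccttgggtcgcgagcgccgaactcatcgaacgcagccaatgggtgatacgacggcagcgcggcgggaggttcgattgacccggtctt
RAD51AP1: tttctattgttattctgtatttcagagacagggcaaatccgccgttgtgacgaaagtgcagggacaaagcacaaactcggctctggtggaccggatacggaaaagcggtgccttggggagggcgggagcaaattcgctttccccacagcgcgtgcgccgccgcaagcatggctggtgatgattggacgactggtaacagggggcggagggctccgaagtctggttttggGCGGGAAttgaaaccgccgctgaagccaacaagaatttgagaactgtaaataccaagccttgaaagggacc
EXO1: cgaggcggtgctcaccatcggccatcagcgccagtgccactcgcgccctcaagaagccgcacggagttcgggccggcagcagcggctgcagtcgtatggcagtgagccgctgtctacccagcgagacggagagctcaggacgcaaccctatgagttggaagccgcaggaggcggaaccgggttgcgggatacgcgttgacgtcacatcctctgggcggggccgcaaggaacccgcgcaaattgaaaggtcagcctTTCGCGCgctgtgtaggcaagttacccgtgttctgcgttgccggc
FANCD2: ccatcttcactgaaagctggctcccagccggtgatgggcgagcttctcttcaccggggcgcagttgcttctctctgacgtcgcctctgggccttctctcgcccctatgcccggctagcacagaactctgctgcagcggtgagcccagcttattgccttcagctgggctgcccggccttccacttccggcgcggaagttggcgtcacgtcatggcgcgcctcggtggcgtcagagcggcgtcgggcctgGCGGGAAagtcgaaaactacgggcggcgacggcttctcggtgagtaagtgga
PALB2: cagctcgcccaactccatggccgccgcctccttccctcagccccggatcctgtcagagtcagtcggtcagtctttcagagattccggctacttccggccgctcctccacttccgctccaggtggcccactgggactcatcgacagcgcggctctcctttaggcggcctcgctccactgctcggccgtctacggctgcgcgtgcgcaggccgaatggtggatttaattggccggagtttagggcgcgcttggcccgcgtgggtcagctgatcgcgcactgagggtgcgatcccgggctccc
LIG4: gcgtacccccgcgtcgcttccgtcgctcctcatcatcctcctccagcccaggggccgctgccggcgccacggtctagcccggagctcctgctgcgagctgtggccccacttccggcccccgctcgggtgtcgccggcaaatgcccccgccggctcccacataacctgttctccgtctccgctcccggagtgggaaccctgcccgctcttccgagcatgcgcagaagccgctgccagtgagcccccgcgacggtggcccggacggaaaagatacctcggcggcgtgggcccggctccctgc

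Both strands were searched. For E2F the first word was TTCCCGC, followed by its variant spelled TTCGCGC, by another variant spelled TTGCCGC, and by the last variant, which was spelled TTGGCGC in the search. For the cell cycle homology region the words were TTTGAA and, as its only variant in this search, TTCGAA, and the CCAAT box was searched under its own name. Matches of different words, or of 1 word on both strands, can share bases, and a window was counted once however many matches it held. RAD54L, RAD51AP1, EXO1 and FANCD2 each held 1 E2F word, whose first base in the printed window lay at -49, -21, 5 and -2, with the annotated start counted as 0. PALB2 and LIG4 held none. Over the 51 windows 26 held an E2F word (51.0%), against 20.2% of the 10671 windows of genes tested and 13.0% of all windows in the table. By pathway these were 16 of 25 in recombination and Fanconi repair, 1 of 6 in end joining, 3 of 3 in mismatch repair, 4 of 7 in base excision and 2 of 10 in nucleotide excision repair. By call they were 18 of the 27 genes that fell, 4 of 8 not called and 4 of the 16 that rose. Among genes that fell at least 2-fold, 7 of 9 windows held the word, and those of FANCB and ERCC2 did not. Of all the other members 19 of 42 held it, as did 9 of the 17 recombination and Fanconi genes among them. The 4 genes that rose with an E2F word were FANCF, MSH3, PMS2 and XPC. The cell cycle word was in 3 of 51 windows, against 11.3% for genes tested, and a CCAAT box in 23 of 51, against 36.1%. A match is a description of letters, and binding was not measured.

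All 3 genes listed under strand exchange, the step in which the broken strand invades its copy, fell, with a median log2 fold change of -2.62. RAD54L, a motor protein that helps the recombinase pair strands (chr1:46247688-46278473), measured 6.29, 6.95 and 6.14 CPM in young and 1.07, 0.923 and 1.11 CPM in quiescent libraries. The groups were far apart and each quiescent library held 22 reads of it. RAD54L fell by a log2 fold change of -2.65 ± 0.16 (SE; edgeR adjusted p = 5.42e-14), which left 16.0% of the young level. RAD51AP1, a cofactor that stimulates strand invasion (chr12:4538798-4560048), measured 11.1, 12.1 and 12.1 CPM in young and 1.70, 1.93 and 2.12 CPM in quiescent libraries. Every quiescent value was less than the lowest young one, and the log2 fold change was -2.62 ± 0.12 (edgeR adjusted p = 1.77e-16). RAD54B, a relative of RAD54L, fell less, by -1.18 ± 0.20 on the log2 scale, from 2.14 to 2.60 CPM in young to 0.923 to 1.11 CPM in quiescent libraries. It was read only 20 to 66 times per library and shares 59.1% of its exon length with FSBP on the same strand, so its value is uncertain. Its log2 fold change was -0.998 with library size alone.

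EXO1, BLM and BRIP1, listed together as helicase and resection genes, all fell. EXO1, which resects breaks to single strands (chr1:241847967-241895148), went from 9.48, 9.72 and 8.29 CPM in young to 2.28, 1.97 and 1.97 CPM in quiescent libraries. Its log2 fold change was -2.14 ± 0.12 (edgeR adjusted p = 4.56e-14). BLM, the helicase that dissolves crossed strands and is lost in Bloom syndrome, had 6.92, 6.47 and 6.60 CPM in young and 1.70, 1.8 and 1.61 CPM in quiescent libraries. No value of either gene crossed between the groups, and BLM fell by -1.96 ± 0.13 on the log2 scale. BRIP1, a helicase that works with BRCA1 and is also a Fanconi gene, fell to 30.9% of the young level (log2 fold change -1.69 ± 0.09). Of the 3 subunits of the MRN complex, which senses and first trims broken ends, 2 rose and 1 was not called. RAD50, its coiled-coil subunit, rose from 76.0 to 83.1 CPM in young to 97.4 to 101 CPM in quiescent libraries (log2 fold change 0.30 ± 0.04), and MRE11, its nuclease, rose by 0.21 ± 0.06. NBN, its signalling subunit, was not called, with 58.4 to 60.5 CPM in young and 54.8 to 58.0 CPM in quiescent libraries, all under the young ones (log2 fold change -0.08 ± 0.04, edgeR adjusted p = 0.111). RAD50 shares 79.7% of its exon length with an overlapping annotated gene on the same strand, and MRE11 has 1 named pseudogene.

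Of the 4 genes listed under BRCA complexes 3 fell and 1 rose. BRCA1, a ubiquitin ligase that promotes resection, measured 17.8, 17.4 and 16.3 CPM in young and 7.41, 9.98 and 8.47 CPM in quiescent libraries, and BARD1, its obligate partner, 7.91, 8.02 and 9.26 CPM and 5.28, 4.32 and 3.48 CPM. Both fell, to 50.5% and 52.0% of the young level, with log2 fold changes of -0.99 ± 0.09 and -0.94 ± 0.12. BRCA2, which loads the recombinase on single strands, fell by -0.55 ± 0.10 on the log2 scale, from 8.86 to 10.8 CPM to 6.16 to 7.21 CPM. PALB2, the bridge between BRCA1 and BRCA2 (chr16:23603160-23641310), rose instead. It measured 13.5, 14.2 and 14.8 CPM in young and 23.2, 23.6 and 22.0 CPM in quiescent libraries, a log2 fold change of 0.70 ± 0.07 (edgeR adjusted p = 5.82e-10), and its lowest quiescent library stood above its highest young one. The log2 ratio of BRCA2 to PALB2 counts within a library went from -0.55 ± 0.17 in young to -1.79 ± 0.17 in quiescent libraries (SD, n = 3). That of BRCA1 to BARD1 was 1.04 ± 0.19 and 0.99 ± 0.44, and the libraries of the groups overlapped. Quiescent replicate 1 held less BRCA1 and more BARD1 than the other two, and without it the difference in this ratio was 0.21 in place of -0.05. Without young library 1.0 it was 0.02.

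The 5 paralogs that support the recombinase filament were divided. RAD51B rose by 0.53 ± 0.13 on the log2 scale, from 2.95 to 3.59 CPM to 4.11 to 5.28 CPM. XRCC2 fell by -0.90 ± 0.27, but had 9 to 35 reads per library, and the DESeq2 Wald test gave it an adjusted p of 0.0735. RAD51C fell by -0.24 ± 0.08, a call lost without quiescent replicate 2 (edgeR adjusted p = 0.0936, log2 fold change -0.16). It was also lost with library size alone (adjusted p = 0.481, at -0.06), with upper-quartile factors (0.0509, at -0.17) and with the DESeq2 Wald test (0.0550, at -0.25). RAD51D and XRCC3 were not called, at -0.04 ± 0.07 and -0.08 ± 0.09, with groups that overlapped. Without young library 1.1 XRCC3 passed, at -0.19 (edgeR adjusted p = 0.0379).

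FANCD2 and FANCI form the clamp of the Fanconi pathway, which encircles DNA at a stalled fork and is ubiquitylated when a crosslink is found. FANCD2 (chr3:10026414-10101930) measured 14.4, 12.1 and 13.3 CPM in young and 3.15, 3.15 and 3.23 CPM in quiescent libraries, and FANCI (chr15:89243949-89317261) 39.5, 42.1 and 38.3 CPM and 13.0, 12.3 and 12 CPM. The quiescent values of both lay in a narrow band far under the young ones. The log2 fold change was -2.06 ± 0.11 for FANCD2 and -1.68 ± 0.06 for FANCI (edgeR adjusted p = 3.18e-15 and 4.19e-18). FANCD2 has 1 named pseudogene. The core complex, the ligase that modifies the clamp, changed less. Of its 8 genes in the set 7 fell, led by FANCA at -1.47 ± 0.08 and FANCB at -1.09 ± 0.16. Of the FAAP genes, which are outside the set, FAAP24 rose by 0.68 ± 0.18 and FAAP20 fell by -0.14 ± 0.06. FAAP100 was not called, at 0.06 ± 0.05. FANCA went from 16.3 to 18.3 CPM to 6.10 to 6.50 CPM, and FANCB from 3.52 to 4.05 CPM to 1.55 to 2.02 CPM. FANCB stood at -0.91 with library size alone. FANCL, the catalytic subunit, and FANCM, the translocase that anchors the complex, fell by -0.35 ± 0.09 and -0.33 ± 0.11, FANCG by -0.27 ± 0.07, FANCE by -0.24 ± 0.08 and FANCC by -0.23 ± 0.08. With library size alone the calls of FANCL, FANCM, FANCG, FANCE and FANCC were lost, at -0.17, -0.15, -0.09, -0.06 and -0.05. The FANCE call was also lost without young library 1.2 (edgeR adjusted p = 0.0643) and without quiescent replicate 2 (0.0585), and the FANCC call without young library 1.0 (0.0543), with the log2 fold changes then at -0.18, -0.21 and -0.19. FANCF, an adaptor of the core, was the exception among the 8, at 7.24, 6.80 and 6.78 CPM in young and 9.79, 11 and 12.2 CPM in quiescent libraries. It rose by 0.66 ± 0.09 on the log2 scale (edgeR adjusted p = 6.50e-07).

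**Figure D2:**
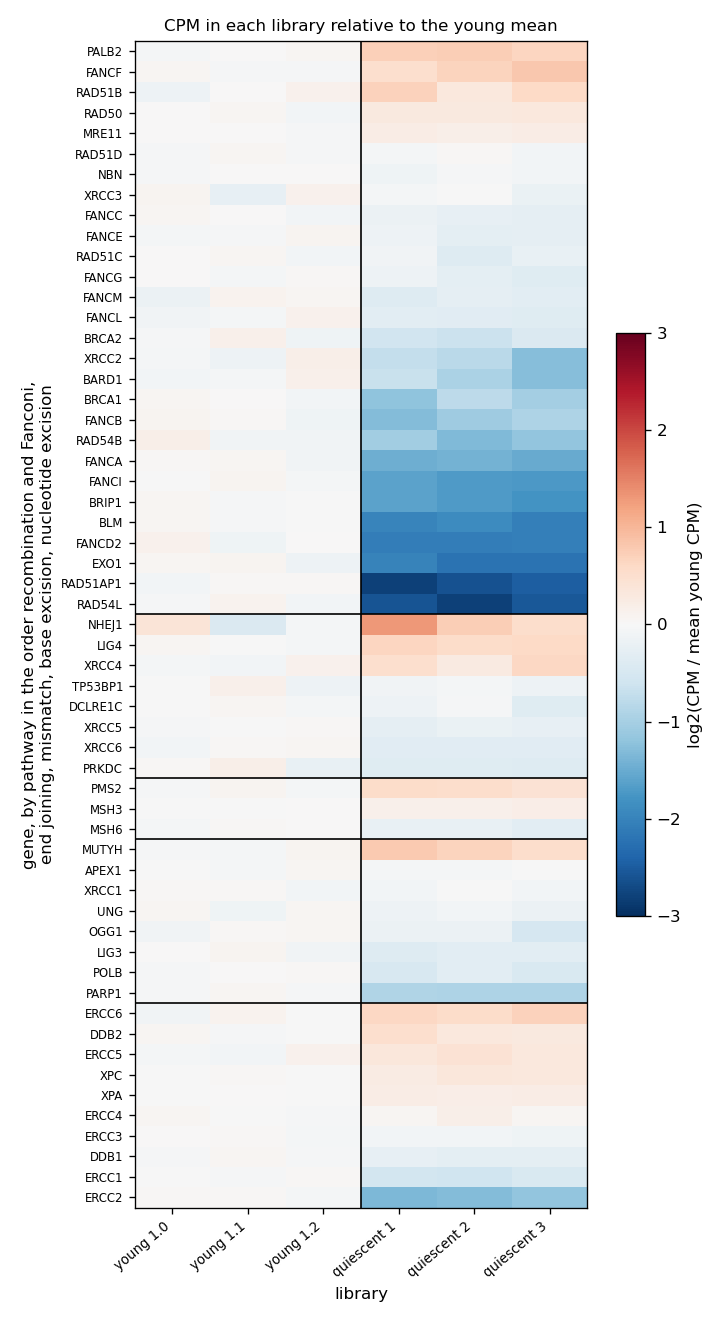
CPM of each gene in each library, as log2 of the ratio to the mean of the 3 young libraries, with genes in rows by pathway and libraries in columns. The 3 quiescent columns show alike colours for the strongly changed genes, with the darkest blue in the recombination genes from FANCA to RAD54L.

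Of the 8 end joining genes 3 fell, 3 rose and 2 were not called. XRCC6 and XRCC5, the Ku subunits that clasp a broken end, fell slightly. XRCC6 measured 313, 339 and 342 CPM in young and 262, 259.9 and 262 CPM in quiescent libraries (log2 fold change -0.34 ± 0.04), and XRCC5 went from 414 to 435 CPM to 354 to 369 CPM (-0.24 ± 0.04). PRKDC, the kinase that Ku recruits, had 424, 468 and 358 CPM in young and 323, 321 and 319 CPM in quiescent libraries. Its young libraries were spread widely and its quiescent ones hardly at all, and the log2 fold change was -0.37 ± 0.10 (edgeR adjusted p = 0.0152). With library size alone the PRKDC and XRCC5 calls were lost, at -0.19 and -0.06. LIG4, the ligase of the pathway (chr13:108207439-108218368), rose. Its libraries read 30.7, 29.1 and 28.2 CPM in young and 45.8, 43.2 and 44.6 CPM in quiescent cells, without overlap, and the log2 fold change was 0.60 ± 0.05 (edgeR adjusted p = 1.10e-10). XRCC4, the scaffold that holds LIG4, rose by 0.46 ± 0.10, from 6.06 to 6.93 CPM to 7.72 to 9.73 CPM. NHEJ1, a bridging factor, was called higher at 0.90 ± 0.32 but was read only 9 to 23 times per library. Its call was lost without young library 1.1 (edgeR adjusted p = 0.0676, log2 fold change 0.72), without quiescent replicate 1 (0.128, at 0.66) and with the DESeq2 Wald test (0.143, at 0.89), and 65.4% of its exon length is shared with another annotated gene. DCLRE1C, the Artemis nuclease that opens hairpins, and TP53BP1, a chromatin reader that shields ends from resection, were not called, at -0.17 ± 0.09 and -0.10 ± 0.07, and their groups overlapped. Without quiescent replicate 2 DCLRE1C passed at -0.26 (edgeR adjusted p = 0.0368), and without young library 1.2 TP53BP1 passed at -0.17 (0.000862).

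The 3 genes listed under mismatch repair moved little, in both directions. EXO1 was counted under recombination and Fanconi repair, not here. MSH6, which recognises single mispaired bases, measured 74.5, 78.9 and 78.5 CPM in young and 66.6, 66.4 and 62.5 CPM in quiescent libraries, and fell by -0.25 ± 0.04 on the log2 scale. MSH3, its alternative for larger loops, measured 23.7, 23.9 and 24.3 CPM and 26.5, 26.5 and 27.4 CPM. It rose by 0.16 ± 0.06 (edgeR adjusted p = 0.0115), a call lost with the DESeq2 Wald test (adjusted p = 0.120) and without the filter on low counts (edgeR adjusted p = 0.0503). The MSH6 call was lost with library size alone, at -0.07. Within a library the log2 ratio of MSH6 to MSH3, which no scaling touches, went from 1.69 ± 0.04 to 1.28 ± 0.08 (SD, n = 3). PMS2, an endonuclease that acts after recognition, rose by 0.51 ± 0.08, from 8.93 to 9.72 CPM to 12.4 to 13.5 CPM. It has 11 named pseudogenes, so reads may have been divided among copies.

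Among the 8 base excision genes of the set, the damage sensor PARP1 changed most. PARP1, which marks strand breaks with poly(ADP-ribose) (chr1:226360691-226408079), measured 159, 169 and 159 CPM in young and 87.1, 85.1 and 85.5 CPM in quiescent libraries. That was 52.9% of the young level, a log2 fold change of -0.92 ± 0.04 (edgeR adjusted p = 2.11e-16). POLB, the gap-filling polymerase, fell by -0.41 ± 0.07, and LIG3, which seals the nick, by -0.34 ± 0.06. OGG1, the glycosylase for oxidised guanine, fell by -0.28 ± 0.08, from 16.1 to 18.0 CPM to 12.2 to 15.3 CPM, a call lost without quiescent replicate 3 (edgeR adjusted p = 0.0672, log2 fold change -0.17) and with library size alone (0.282, at -0.098). MUTYH, which removes the adenine mispaired with oxidised guanine, rose. It had 6.57, 6.51 and 7.21 CPM in young and 11.6, 10.7 and 9.73 CPM in quiescent libraries, a log2 fold change of 0.66 ± 0.09 (edgeR adjusted p = 6.78e-07). APEX1, the endonuclease for sites without a base, XRCC1, the scaffold that holds LIG3, and UNG, the uracil glycosylase, were not called, at -0.04 ± 0.04, -0.05 ± 0.05 and -0.13 ± 0.06. Their groups overlapped, and UNG passed without young library 1.1, at -0.19 (edgeR adjusted p = 0.00851). The ratio of LIG3 to XRCC1 within a library went from 0.18 ± 0.03 to -0.11 ± 0.04 on the log2 scale (SD, n = 3).

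Among the 29 of the 57 genes outside recombination and Fanconi repair, the single fall of at least 2-fold was in nucleotide excision repair. ERCC2, the helicase of the transcription factor TFIIH also named XPD (chr19:45349837-45370918), measured 78.6, 78.8 and 74.0 CPM in young and 30.3, 31.4 and 34.0 CPM in quiescent libraries. It fell to 41.3% of the young level, a log2 fold change of -1.28 ± 0.05 (edgeR adjusted p = 1.17e-17). ERCC3, the other TFIIH helicase, had 70.5 to 75.3 CPM in young and 66.4 to 68.8 CPM in quiescent libraries. Its call, at -0.10 ± 0.04 (edgeR adjusted p = 0.0362), was lost when any library but young library 1.2 was left out, with adjusted p from 0.0729 to 0.204 and log2 fold changes from -0.11 to -0.07. ERCC1, one subunit of the nuclease that cuts on the 5′ side, fell from 85.1 to 90.1 CPM to 58.0 to 63.7 CPM (-0.53 ± 0.05), while ERCC4, its catalytic partner, was not called at 0.10 ± 0.07. With library size alone ERCC4 passed at 0.28 (edgeR adjusted p = 0.000655). DDB2 and XPC rose: DDB2, which finds ultraviolet lesions in chromatin, had 40.9, 38.1 and 38.8 CPM in young and 55.5, 49.3 and 48.3 CPM in quiescent libraries (0.38 ± 0.05), and XPC, which starts global repair, went from 56.2 to 57.9 CPM to 68.0 to 72.5 CPM (0.31 ± 0.04). DDB1, the abundant adaptor of DDB2, fell by -0.28 ± 0.04. The ratio of DDB2 to DDB1 within a library went from -3.38 ± 0.09 to -2.73 ± 0.08 on the log2 scale (SD, n = 3). ERCC6, the ATPase that starts repair at stalled polymerases, rose by 0.62 ± 0.09, ERCC5, the nuclease that cuts on the other side, by 0.36 ± 0.06, and XPA, which verifies damage, by 0.21 ± 0.07. ERCC5 shares 63.2% of its exon length with BIVM-ERCC5 and BIVM on the same strand, and XPA missed the threshold with the DESeq2 Wald test (adjusted p = 0.115).

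Ratios of partner genes within a library, which do not depend on scaling, were computed for 12 pairs. The groups did not overlap in 9 pairs. Among single genes the share without overlap was 73.5%, and that over other pairs was not computed. Each of the 9 pairs had the smallest p of 0.1 that an exact permutation test (two-sided) allows with 3 libraries against 3 (0.133 after adjustment over the 12 pairs), so none could pass 0.05. The largest shifts were -1.46 for RAD54L to RAD54B and -1.24 for BRCA2 to PALB2 on the log2 scale, followed by 0.65 for DDB2 to DDB1 and -0.62 for ERCC1 to ERCC4. FANCD2 to FANCI shifted by -0.37, and the subunits of Ku and of MRN by 0.10 (XRCC5 to XRCC6) and 0.09 (RAD50 to MRE11). The 3 pairs whose groups overlapped were BRCA1 to BARD1, LIG4 to XRCC4 with a shift of 0.14, and XRCC3 to RAD51C with 0.16.

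**Figure D3:**
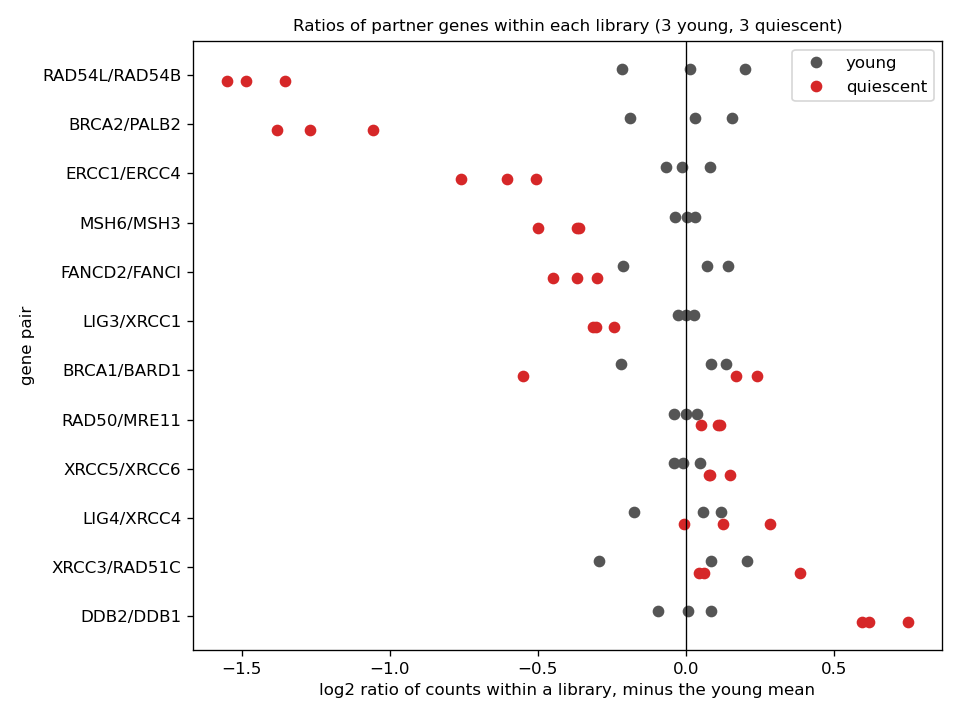
Log2 ratio of the counts of a gene pair within each library, minus the mean of the young libraries, on the x axis, with pairs in rows; grey points are the 3 young and red points the 3 quiescent libraries. Quiescent points lie apart from the young ones in 9 of 12 pairs, and in BRCA1/BARD1 quiescent replicate 1 lies to the left of its group. The share over pairs of other genes was not computed.

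Levels of different genes were compared per length, as RPKM, here the CPM value divided by the exon length in kilobases. That length counts every annotated exon of a gene, whichever transcripts the cells make, so the order of genes depends on the annotation. DDB1 had 410 CPM in young libraries over an exon length of 13950 bases, and XRCC6 had 331 CPM over 3288 bases. The most abundant repair mRNAs in young cells were XRCC6 with 101 ± 4.88 RPKM, APEX1 with 89.3 ± 3.67 and XRCC5 with 77.5 ± 2.01 RPKM (SD, n = 3). DDB1 followed with 29.4 ± 0.888 and PRKDC with 27.0 ± 3.61 RPKM, which did not differ beyond their spread. In quiescent cells APEX1 led with 87.0 ± 1.69 RPKM over XRCC6 with 79.5 ± 0.431. Recombination and Fanconi genes were scarce: none exceeded 9.70 RPKM in young cells, their median level went from 1.92 to 0.829 RPKM, and the lowest in quiescent cells was XRCC2 with 0.121 ± 0.0243 RPKM. NHEJ1 was the lowest of all in young cells with 0.145 ± 0.0418 RPKM. The summed CPM of a pathway stood in quiescent cells at 80.7% of the young sum for recombination and Fanconi repair, 83.6% for end joining, 95.1% for mismatch repair, 79.5% for base excision and 86.3% for nucleotide excision repair. Without the gene whose mean CPM differed most, it stood at 85.5% (without FANCI), 86.4% (PRKDC), 120.3% (MSH6), 93.6% (PARP1) and 90.3% (DDB1), in the same order of pathways. Such sums are weighted towards abundant genes. The recombination and Fanconi sum was 453 CPM in young and 365.5 CPM in quiescent libraries. RAD50, NBN and MRE11, none of them called lower, made up 80.1, 59.7 and 20.5 CPM of the young sum. In the quiescent sum they made up 98.8, 56.5 and 23.8 CPM.

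**Figure D4:**
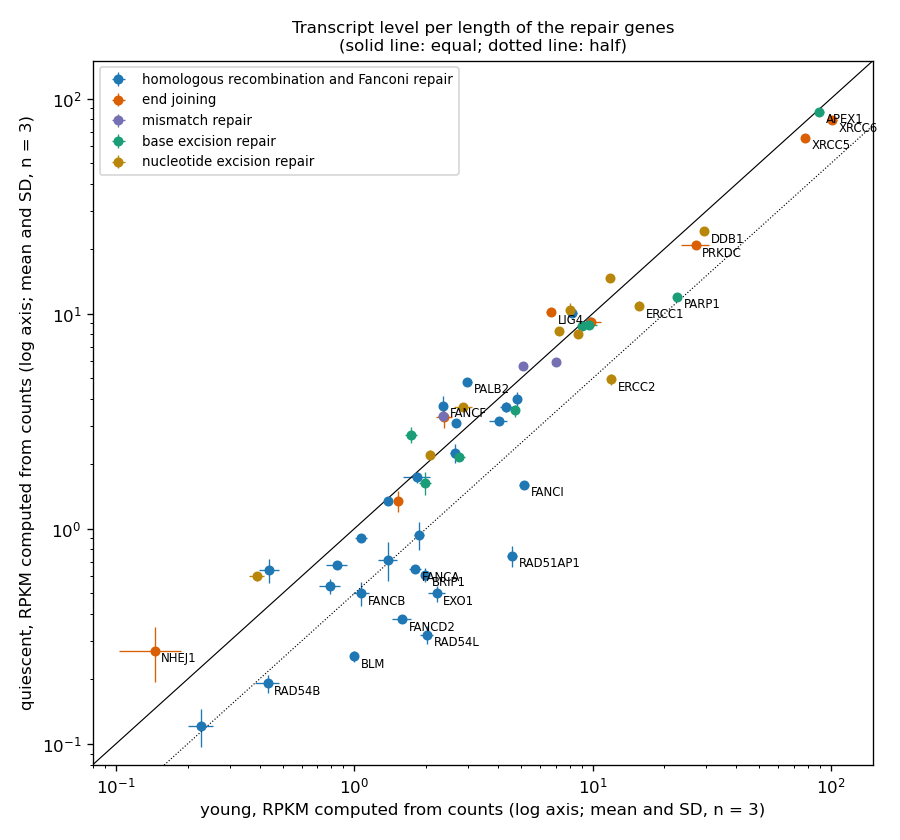
Level per length of each repair gene in young (x axis) and quiescent cells (y axis), as RPKM computed from counts on log axes, with means and SD of 3 libraries; the solid line is equality and the dotted line a 2-fold fall. Genes under the dotted line are recombination and Fanconi genes of low level and ERCC2, while the genes at the top right, XRCC6, XRCC5 and APEX1, lie close to equality.

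Other genes of the same pathways, 88 in number, were also mixed. Of 86 tested, 29 rose (33.7%) and 36 fell (41.9%), with a median log2 fold change of -0.07. GTF2H2 and GTF2H4 were too low to test. Those shares lie near the 34.8% called higher and 36.3% called lower over all genes tested, which is also the background of the counts by pathway below. Only 4 fell and 1 rose by at least 2-fold, against 8.33% and 8.98% of all genes. Among 32 further recombination and Fanconi genes 16 fell, 11 rose and 5 were not called, with a median log2 fold change of -0.11. Of these 32, 3 fell at least 2-fold, so the further genes were more mixed than the listed ones. The largest falls were UBE2T, the ubiquitin carrier enzyme of FANCL, at -1.96 ± 0.11, and EME1, partner of the MUS81 nuclease, at -1.70 ± 0.15. CENPS, a partner of FANCM, rose by 1.04 ± 0.26 but had 12 to 38 reads per library and shares 64.7% of its exon length with a readthrough gene. In base excision repair 7 of 14 fell and 3 rose: NEIL3, a glycosylase of proliferating cells, fell by -2.52 ± 0.17 and FEN1, a flap nuclease also used in replication, by -0.95 ± 0.06, while TDP2, which frees trapped topoisomerase from DNA ends, rose by 0.92 ± 0.04. In end joining 5 of 14 rose, led by POLM at 0.43 ± 0.07 and APLF at 0.43 ± 0.10, and 2 fell, RNF8 at -0.28 ± 0.06 among them. Both further mismatch genes rose, MLH3 by 0.25 ± 0.06 and PMS1 by 0.13 ± 0.05. In nucleotide excision repair 7 of 15 fell, with MNAT1 at -0.73 ± 0.06 and RAD23B at -0.58 ± 0.04, and 4 rose, with GTF2H1 at 0.39 ± 0.04. In translesion synthesis and direct reversal 4 of 9 rose and 4 fell, with REV3L, the catalytic subunit of polymerase zeta, at 0.73 ± 0.10 and RAD18, the ligase that starts bypass, at -0.56 ± 0.07.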

How the data were processed

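Per the labels' protocols, total RNA of 3 quiescent and 3 young MRC-5 samples was prepared for sequencing by the TruSeq kit v2, whose libraries do not mark strand. Per the submitters' processing notes, GRCh38, featureCounts 1.4.6-p4, STAR 2.4.1d and bcl2fastq 1.8.4 were used; the treatment of reads with several matches is not given in the sources used here. The authors deposited raw read counts per gene and RPKM values per gene. Names of the young columns give the group but not the sample, so these libraries are called 1.0, 1.1 and 1.2. Symbols, exon lengths and coordinates came from GENCODE 29 (57055 of 60675 IDs matched).

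The test on deposited counts was that of edgeR 4.0.16, under R 4.3.3 (filterByExpr, TMM factors, robust quasi-likelihood fit, group as the only term), with Benjamini-Hochberg adjustment over 15568 genes; an adjusted p given for one gene comes from it except where another test is named. A call needs an adjusted p under 0.05. The coefficient of variation between libraries, which edgeR terms biological, was 3.84% and may be technical here. The fit was also run on counts simulated from its own estimates, which cannot test the design. CPM used the TMM factors, and SE is from the fit. Ratios within a library added 0.5 to each count. RPKM was computed as CPM per kilobase of exon, in place of the deposited RPKM that had been planned, because of the fault described under the other observations. The 57 genes and all lists were chosen with earlier results of these data known. All 57 are named, and of the other lists the FAAP genes, the 2 largest called changes at a mean CPM of at least 1 and the largest in the minority direction. The alternatives were 16 other settings: DESeq2 1.42.0 size factors and Wald test, other scalings, filters, limma 3.58.1 on counts or log2 RPKM, and leaving out each library. Reads carry no molecular identifiers, so they are not independent molecules.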

Additional observations from a re-analysis of the deposited data

How the results depend on the processing

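Of the 48 repair genes called, 33 stayed called in all 13 count-based settings other than the one reported; the others were RAD51C, XRCC2, FANCC, FANCE, FANCG, FANCL, FANCM, XRCC5, PRKDC, NHEJ1, MSH3, MSH6, OGG1, XPA and ERCC3. The DESeq2 Wald test lost 9 calls, library size alone 10 beside the ERCC3 call, which changed sign, and upper-quartile factors 4. No paired analysis was possible because the young columns carry no replicate numbers that match the quiescent ones. The depth limits NHEJ1, XRCC2, RAD54B and CENPS, which had few reads. Scaling by library size alone moved the median of all genes to 0.18 and upper-quartile factors to 0.07, so small falls depend on the scaling. The limma fits on deposited RPKM carry the fault of those values described under the other observations, and the fit on recomputed RPKM was added after seeing the data and scales by library size.

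With library size alone 21 repair genes fell, with 1 falling in end joining and 0 in mismatch repair, and 3 rose in base excision repair. With recomputed RPKM 20 fell, with 1 in end joining, 0 in mismatch repair and 2 in base excision repair, where 3 rose. In mismatch repair 1 gene rose without a filter on low counts and 1 with the DESeq2 Wald test. With deposited RPKM and a pseudocount of 1 or 0.1, 2788 or 2880 of all genes rose, 7 or 5 repair genes, 2 or 0 in recombination and Fanconi repair, 1 in end joining, 0 in mismatch repair, 3 in nucleotide excision repair, and 9 of the other repair genes; 1 fell in end joining and 0 in mismatch repair. The cause was not tested beyond the fault of these values.

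Ratios from deposited RPKM were -0.49 for MSH6/MSH3, -0.61 for BRCA2/PALB2, -0.65 for FANCD2/FANCI, 0.93 for DDB2/DDB1, -0.48 for LIG3/XRCC1, and with the sign turned -0.036 for XRCC5/XRCC6 and -0.083 for RAD50/MRE11. The BRCA1/BARD1 ratio ran from -0.19 to 0.21 when a library was left out.

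Some genes changed sign, of which ERCC3, PRKDC, MRE11, RAD50 and XPC were called in the reported fit. With library size alone these were RAD51D at 0.14, XRCC3 at 0.098, NBN at 0.10, DCLRE1C at 0.0079, TP53BP1 at 0.078, UNG at 0.049, APEX1 at 0.14, XRCC1 at 0.13 and ERCC3 at 0.077. With upper-quartile factors they were RAD51D at 0.036, APEX1 at 0.032 and XRCC1 at 0.019. With recomputed RPKM they were RAD51D at 0.082, XRCC3 at 0.063, NBN at 0.090, TP53BP1 at 0.073, UNG at 0.045, APEX1 at 0.14, XRCC1 at 0.11 and ERCC3 at 0.068. With deposited RPKM and a pseudocount of 1 or 0.1 they were RAD51D at 0.22 or 0.37, XRCC3 at 0.0071 or 0.0097, PRKDC at 0.14 or 0.15, APEX1 at 0.19 or 0.19, MRE11 at -0.12 or -0.17, RAD50 at -0.23 or -0.25, XPC at -0.074 or -0.080 and ERCC4 at -0.11 or -0.16. Leaving out a library moved APEX1 from -0.067 to 0.0031.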

Other observations

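Many repair genes lie head to head with a neighbour. Starts were taken at the outer end of each annotated gene, and its other starts were not considered. With annotated starts within 1000 bases on opposite strands and a coding partner, 23 of the 57 genes had such a neighbour (40.4%), against 17.0% of the 12946 coding genes tested. Both genes were tested in 19 of these pairs, and the counts that follow were not made for other head-to-head pairs. Over all genes tested 36.3% were called lower and 34.8% higher. Of the 10 pairs in which both genes were called, 4 were both lower, 3 both higher and 3 opposite in quiescent libraries. All 3 pairs that rose together have starts that overlap: FANCF with GAS2, MRE11 with ANKRD49 and XRCC4 with TMEM167A. Reads of a shared stretch cannot be separated without strand marks. GAS2 was also low, with 0.160 CPM in young and 1.18 CPM in quiescent libraries. The opposite pairs were PALB2 with DCTN5, LIG3 with CCT6B and XPC with LSM3, and the starts of the LIG3 and XPC pairs overlap as well. DCTN5, a dynactin subunit whose start is 82 bases from that of PALB2, fell by -0.37 ± 0.06 on the log2 scale (SE, edgeR adjusted p = 5.81e-05), from 71.5 ± 7.56 to 55.5 ± 0.269 CPM (SD, n = 3), while PALB2 rose. MCM4, a subunit of the replicative helicase whose start is 2 bases from that of PRKDC, fell by -0.98 ± 0.05, against -0.37 for PRKDC. ABHD13, 11 bases from LIG4, was not called at -0.06 ± 0.06 while LIG4 rose.

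The deposited RPKM values were not scaled by each library's own total. The read total implied by count, exon length and deposited RPKM ran through 15 values in the young columns, repeating with the row of the table, from 25970117 to 41540688 in young library 1.0, and through 14 values in the quiescent columns, from 18661591 to 33685726 in quiescent replicate 1. Within 0.2% this held for 91.0% of 5063 rows examined. For the 57 repair genes it moved the log2 fold change by -0.77 to 0.37, with a median of -0.28, relative to counts over each library's own total.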
